A study of Mus musculus with 9 samples.

Results

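The libraries described here are the 3 that carry the number 1, one from each treatment, out of 9 RNA-Seq libraries of cultured mouse macrophages. They were set against the 6 libraries numbered 2 and 3, with treatment as a block, over the 11950 of 53465 genes that had more than 1 CPM (counts scaled to the library's total) in at least 3 of the 9 libraries. The cells were bone marrow derived macrophages (BMDMs) of male wild-type C57BL/6 mice (the J substrain in the study's methods), grown with CSF1 at 50 ng/ml for 5 to 10 days. UNX cells were left untreated. CO-CM cells received medium conditioned by adventitial fibroblasts of the pulmonary artery from control calves, and PH-CM cells received the same kind of medium from calves with pulmonary hypertension, each medium being a pool over several fibroblast populations. The labels give 16 hours of exposure in one protocol and 24 hours in another, and the study's methods give a time between them. The study states that the experiment was repeated, but neither its methods nor the labels tie a replicate number to a culture or a mouse. Same-numbered libraries are therefore called repeat 1, 2 and 3 and are taken as 1 culture repeat each. The comparison is then 1 repeat against 2, and its p-values measure only the spread among these 9 libraries.

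Some background helps to read the genes below. When oxygen is short, prolyl hydroxylases such as EGLN1 and EGLN3 stop marking HIF-1alpha for breakdown, and HIF then binds short DNA elements near genes for glucose uptake, glycolysis, lactate export, mitochondrial quality control and blood vessel growth. Macrophages also use HIF under normal oxygen, during inflammatory activation or when lactate and cytokines are around, and their cultures differ in maturation markers such as proteases, lectins and lipid-handling proteins. NRF2 and ATF4 are transcription factors of the antioxidant and the amino acid responses, and ribosome biogenesis genes follow growth signals.

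Repeat 1 libraries held 62017933 to 68317274 counted reads, against 63493877 to 84314201 in the other repeats. Of the sum of squares of log2 CPM over all genes tested, 90.99% lay between treatments, 3.75% between repeat 1 and the other repeats, and 1.59% between repeats 2 and 3. Macrophage markers stood in every library, with a summed level of 14700 to 24840 CPM over 15 genes in repeat 1 and 15280 to 27180 CPM in repeats 2 and 3. Of the 15, Fcgr1, an Fc receptor (-0.32 on the log2 scale), and Itgam, the integrin CD11b (-0.27), were called lower, and 0 were called higher by edgeR or DESeq2 or reached an unadjusted p under 0.05 in that direction. Without the CO-CM library of repeat 1, 0 of the 15 were called. Fcgr1 also lost its call without the PH-CM library of repeat 1, and Itgam without either other CO-CM library.

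Genes were called where the edgeR quasi-likelihood test gave a Benjamini-Hochberg adjusted p (FDR) of at most 0.05 and the fold was at least 1.2. Repeat 1 had 453 genes called lower, 3.79% of those tested, and 184 called higher, 1.54%, so that 637 genes (5.33%) were called in all. Scaling by library size alone gave 353 higher and 387 lower, a different balance from the main split. Most changes were small, with a median size of 0.42 on the log2 scale among called genes. At a fold of 2 or more, 28 genes were lower and 2 were higher. The extremes were Mgarp, a mitochondrial protein gene known as a HIF target, at -2.46, and Xlr, an X-linked lymphocyte gene under 2 CPM in every library, at 1.34. Xlr lost its call without any of 5 single libraries, with the highest FDR (0.142) without the PH-CM library of repeat 1. Leaving out the CO-CM library of repeat 1 reduced the 637 calls to 304, and leaving out all CO-CM libraries gave 339. With no fold threshold, 1814 genes had an FDR of at most 0.05. Some lists below are also counted at an unadjusted p under 0.05, a wider cutoff that all of these 1814 genes meet. The share of all genes at that cutoff is not given, so those counts have no background to be read against.

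The shift of repeat 1 was then taken in each treatment by itself, as its log2 CPM minus the mean of repeats 2 and 3. Repeat 1 lay below both other libraries in all 3 treatments for 1967 genes (16.5%) and above both for 1785 (14.9%). Among called genes, 442 of the 453 lower and 180 of the 184 higher had this pattern, which is a description because the call was made on the same libraries. All 3 shifts had the sign of the fitted change in 636 of the 637. The exception was Ackr3, a scavenging chemokine receptor, whose shift was 0.16 in UNX, -1.58 in CO-CM and -1.28 in PH-CM, and whose FDR was 0.395 without the PH-CM library of repeat 1. Across genes the shifts correlated with r = 0.456 between UNX and CO-CM, 0.414 between UNX and PH-CM, and 0.484 between CO-CM and PH-CM. These are descriptions across genes, which are not independent replicates, and same-numbered libraries share a repeat. Repeats 2 and 3 themselves differed in 65 genes (0.544%), of which 42 (0.351%) were higher and 23 (0.192%) lower in repeat 2. That count ran from 2, without the PH-CM library of repeat 3, to 163, without the UNX library of repeat 1. Repeat 1 differed from repeat 2 in 932 genes (7.8%), with 318 higher (2.66%) and 614 lower (5.14%). It differed from repeat 3 in 611 genes (5.11%), with 213 higher (1.78%) and 398 lower (3.33%). No gene passed the test for a repeat 1 shift that differed between treatments, with 776 genes at an unadjusted p under 0.05 in edgeR and 121 called by the likelihood ratio test of DESeq2. Of genes described below, Atp6v0d2, Itgax, Mmp12, Fabp5, Ighm, Ccl9, Clec7a, Ankrd37, Cenpa, Fabp4, Fcgr1 and Scd1 were among those 121.

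**Figure D1:**
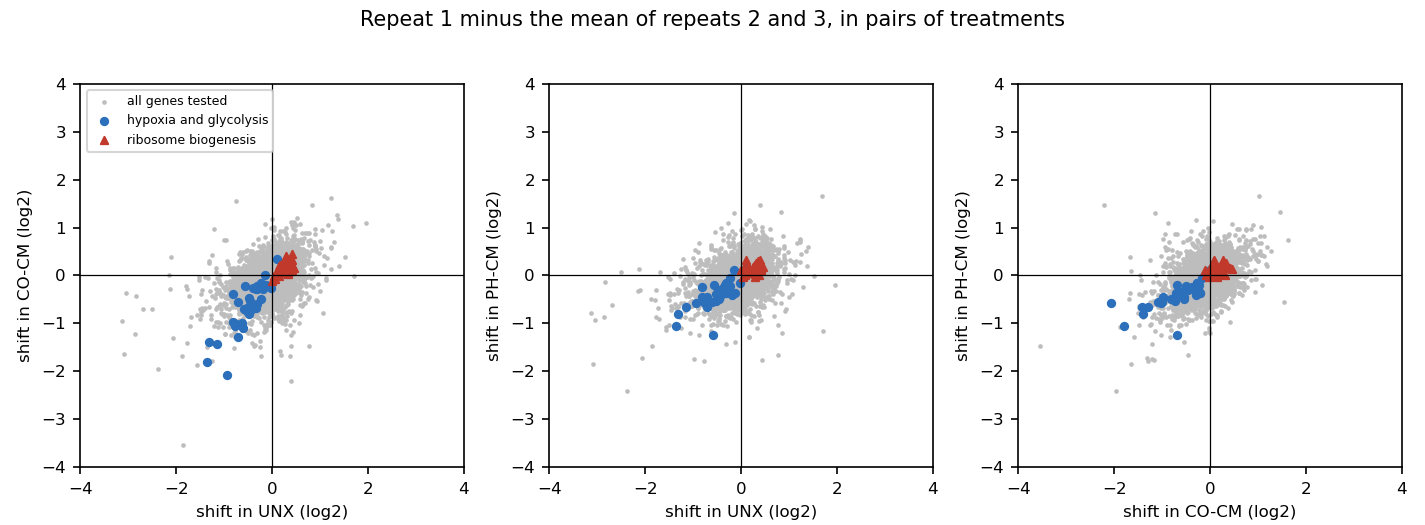
Shift of repeat 1 from the mean of repeats 2 and 3 (log2) in 1 treatment plotted against the shift in another, for all 11950 genes tested (grey), the hypoxia and glycolysis list (blue circles) and the ribosome biogenesis list (red triangles). The blue points lie mostly below 0 on both axes in all 3 panels, and the red triangles mostly above 0.

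Among the gene lists, hypoxia response and glycolysis held the most genes that fell. All 35 genes of the list passed the filter on low levels, 28 were called lower, 0 higher and 7 were not called (edgeR, with 33 lower and 1 higher at an unadjusted p under 0.05, and 28 lower by DESeq2). The median log2 change over the 35 was -0.50, against -0.0036 over all genes tested, with medians of -0.48 in UNX, -0.60 in CO-CM and -0.39 in PH-CM. The 28 were 80% of the list, against 3.79% of all genes called lower. Repeat 1 lay below both other libraries in all 3 treatments for 32 of the 35 (91.4%), against 16.5% of all genes. Of the 28 called genes, 19 had their lowest shift in CO-CM. The share of all genes with their lowest shift in CO-CM was not counted, so the 19 cannot be read as particular to this list. Leaving out the CO-CM library of repeat 1 gave 14 members called lower in place of 28, leaving out any other single library gave 20 to 30, and leaving out all CO-CM libraries gave 18. Members beyond Egln3, Bnip3, Ankrd37 and Slc16a3 are described because they are on this list, after its values were seen. With bulk RNA, fewer cells that express a gene cannot be told apart from less RNA per cell.

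The promoters of 4 called genes are shown because they hold the core of the HIF element. Egln3 encodes an oxygen-sensing prolyl hydroxylase, Bnip3 a mitophagy receptor, Pdk1 the kinase that keeps pyruvate out of the mitochondrial oxidation pathway, and Slc2a1 the glucose transporter GLUT1. Each window runs from 250 bases before to 50 bases after the RefSeq start (GRCm38.p6), 5′ to 3′ on the gene's strand. The windows are chr12:54203825-54204124 (minus strand) for Egln3, chr7:138909457-138909756 (minus) for Bnip3, chr2:71872974-71873273 (plus) for Pdk1 and chr4:119108495-119108794 (plus) for Slc2a1. Capitals mark ACGTG or GCGTG on either strand, which may overlap.
Egln3: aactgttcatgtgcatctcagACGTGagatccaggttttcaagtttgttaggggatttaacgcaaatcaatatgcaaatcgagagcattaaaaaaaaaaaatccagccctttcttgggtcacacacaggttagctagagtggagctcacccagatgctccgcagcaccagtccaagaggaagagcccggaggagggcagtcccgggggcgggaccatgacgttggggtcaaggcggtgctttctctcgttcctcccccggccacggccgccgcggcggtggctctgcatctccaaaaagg
Bnip3: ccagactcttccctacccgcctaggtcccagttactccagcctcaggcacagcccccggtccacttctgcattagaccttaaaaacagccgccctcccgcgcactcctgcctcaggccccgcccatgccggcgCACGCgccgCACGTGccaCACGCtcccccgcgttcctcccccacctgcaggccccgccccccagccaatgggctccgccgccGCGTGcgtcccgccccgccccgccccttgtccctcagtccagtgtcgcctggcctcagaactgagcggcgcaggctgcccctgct
Pdk1: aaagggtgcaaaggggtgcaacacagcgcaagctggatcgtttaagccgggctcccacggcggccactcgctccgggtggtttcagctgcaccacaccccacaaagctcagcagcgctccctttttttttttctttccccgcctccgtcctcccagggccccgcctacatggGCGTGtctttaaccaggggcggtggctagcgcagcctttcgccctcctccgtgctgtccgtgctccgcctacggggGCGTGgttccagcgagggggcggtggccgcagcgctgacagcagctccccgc
Slc2a1: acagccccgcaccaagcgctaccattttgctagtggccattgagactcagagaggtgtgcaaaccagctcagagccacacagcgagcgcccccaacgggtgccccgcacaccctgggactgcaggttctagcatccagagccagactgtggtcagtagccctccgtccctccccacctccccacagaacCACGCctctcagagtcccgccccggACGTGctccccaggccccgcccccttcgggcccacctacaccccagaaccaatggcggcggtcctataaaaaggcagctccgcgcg
The core occurred 1 time in Egln3, 5 times in Bnip3, and 2 times each in Pdk1 and Slc2a1. Of 31 list members with a RefSeq window, 24 (77.4%) held it, as did 19 of the 25 called members with a window (76%). The same letters were in 5885 of 9147 windows of tested genes (64.3%) and in 11848 of 27025 windows of all genes (43.8%). A match is a description of these letters and not a binding site.

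Among oxygen sensors, Egln3 in UNX was at 19.2 CPM in repeat 1, 65.8 in repeat 2 and 36.6 in repeat 3. In CO-CM it was at 14.9, 65.2 and 41.4 CPM, and in PH-CM at 41.2, 109.8 and 67.1 CPM. Repeat 1 was lowest and repeat 2 highest in every treatment, with no overlap inside a treatment. The gene was 2.69-fold lower in repeat 1 (log2 -1.43 ± 0.24 SE, FDR 0.00566) and kept its call without any single library. Egln1, the main hydroxylase at normal oxygen, was 1.42-fold lower (FDR 0.00953, and 0.0623 without the CO-CM library of repeat 1). Hif1a, the oxygen-regulated HIF subunit, was instead highest in repeat 1 at the RNA level, with 101.8, 92.3 and 97.8 CPM in UNX, 93.9, 76.5 and 72.2 in CO-CM, and 199, 182 and 177 in PH-CM for repeats 1, 2 and 3. Its change of 0.20 had an FDR of 0.0178 but stayed under the fold of 1.2, so it was not called.

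Mitochondrial members were called lower as well. Bnip3 was at 17.4, 55.9 and 33.3 CPM in UNX, at 17.3, 56.1 and 37.2 in CO-CM, and at 42.2, 91.8 and 59.9 in PH-CM for repeats 1, 2 and 3, again with repeat 1 lowest and repeat 2 highest throughout. It was 2.28-fold lower (log2 -1.19 ± 0.21, FDR 0.0065), and without the CO-CM library of repeat 1 the FDR was 0.0514. Its relative Bnip3l was 1.26-fold lower, but its fold passed under 1.2 without the UNX library of repeat 1 (FDR 0.0333). Pdk1 was at 57.3 CPM in repeat 1 of CO-CM against 157 and 125 in repeats 2 and 3, at 116 against 209 and 169.9 in UNX, and at 95.4 against 166 and 137 in PH-CM. It was 1.84-fold lower (FDR 0.00341). Higd1a, a small mitochondrial protein gene, was 1.24-fold lower and lost its call without any of 6 single libraries, with the highest FDR (0.131) without the PH-CM library of repeat 1.

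Glucose uptake and the glycolytic steps fell along the length of the pathway. Slc2a1 was 1.69-fold lower, Hk2 (hexokinase) 1.25-fold, Gpi1 1.52-fold, Pfkl (phosphofructokinase) 1.74-fold, Aldoa 1.41-fold, Tpi1 1.72-fold, Pgk1 1.51-fold, Pgam1 1.45-fold, Eno1 1.45-fold and Pkm 1.24-fold, all called. Slc2a1 had an FDR of 0.0552 without the CO-CM library of repeat 1, where Pkm fell under the fold of 1.2 (FDR 0.0299). Hk2 lost its call without any of 6 single libraries, with the highest FDR (0.159) without the UNX library of repeat 1. Gapdh was 1.33-fold lower, although pseudogene copies make its reads uncertain. Ldha, which converts pyruvate to lactate, was at 1081 CPM in repeat 1 against 1827 and 1542 in UNX, 703 against 1499 and 1313 in CO-CM, and 1296 against 1996 and 1840.4 in PH-CM. No repeat 1 library overlapped the others of its treatment, and the fall was 1.66-fold (log2 -0.73 ± 0.09, FDR 0.00152). Slc16a3, the lactate exporter MCT4, was at 117 CPM against 309 and 219 in UNX, 67.2 against 205 and 159 in CO-CM, and 229 against 410.1 and 317 in PH-CM. It fell 2.11-fold (FDR 0.00362) and kept its call without any single library. On the deposited RPKM scale, which corrects for gene length, these were abundant transcripts, with a mean of 681 RPKM for Aldoa, 598 for Pkm, 539 for Gapdh and 438 for Ldha over the 9 libraries. Members without a call included Hk1 (log2 change -0.15) and Pfkp (-0.15), the other hexokinase and phosphofructokinase genes on the list.

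Secreted and signalling members followed. Vegfa, the vascular growth factor, was at 48.5, 99.1 and 73.5 CPM in UNX, 65.9, 162 and 105 in CO-CM, and 325, 474 and 413 in PH-CM for repeats 1, 2 and 3. Repeat 1 was lowest in each treatment, but the PH-CM library of repeat 1 stood above every UNX and CO-CM library. The fall was 1.68-fold (FDR 0.0102, and 0.078 without the CO-CM library of repeat 1). Adm (adrenomedullin, a mean of 1.32 RPKM) fell 1.85-fold and Ankrd37 2.26-fold, although Ankrd37 overlaps Ufsp2 and the strand setting of the counting is not stated. Without the CO-CM library of repeat 1, Ankrd37 had an FDR of 0.0524. Adm lost its call without any of 7 single libraries, with the highest FDR (0.162) without the PH-CM library of repeat 1. Not called were Ero1l (-0.30, FDR 0.0792), Kdm3a (-0.26), P4ha2 (-0.24) and Car9 (-0.02), the Car9 product being a membrane carbonic anhydrase often used as a hypoxia marker.

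**Figure D2:**
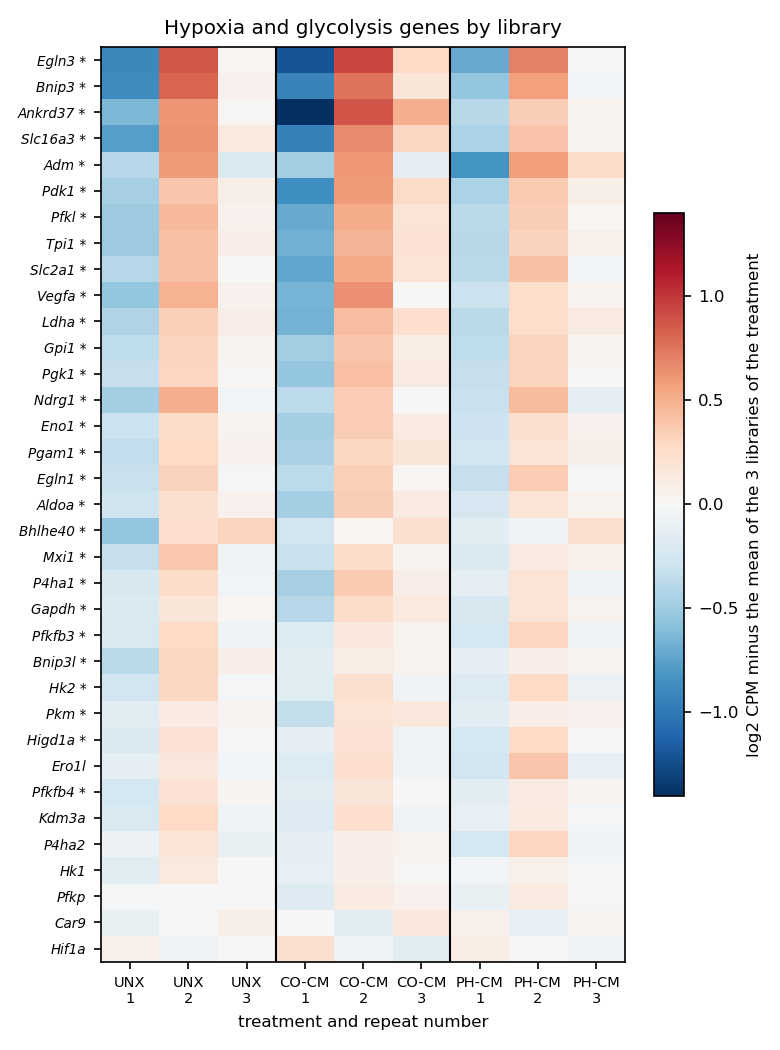
Log2 CPM of the 35 hypoxia and glycolysis genes in the 9 libraries, minus the mean of the 3 libraries of the same treatment. Columns are treatment and repeat number, and a star marks the 28 genes called lower. For most genes repeat 1 columns are blue, repeat 2 columns red and repeat 3 columns pale between them. Bhlhe40, Car9 and Hif1a depart from this.

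The heatmap of hypoxia genes shows a graded order, with repeat 3 between repeats 1 and 2. This order was looked for after the values were seen. It held in all 3 treatments for 30 of the 35 genes (85.7%), against 594 of the 11950 genes tested (4.97%). The order requires repeat 1 to be lowest, so these shares also count the low level of repeat 1. Repeat 1 was lowest in all 3 treatments in 32 of the 35 and in 1967 of all genes. The place of repeat 3 is to be read as 30 of those 32 against 594 of those 1967. Repeats 2 and 3 differed by the call rule in 9 of the 35. Several genes outside the list had the same order. Ak4, a mitochondrial adenylate kinase gene, was 2.93-fold lower (log2 -1.55 ± 0.29, FDR 0.00816, and 0.0575 without the CO-CM library of repeat 1). Mgarp was at 0.22, 1.91 and 0.81 CPM in UNX, 0.32, 1.89 and 0.94 in CO-CM, and 0.77, 6.47 and 2.82 in PH-CM, a 5.52-fold fall at a level near the filter. Ndufa4l2, a HIF target in the respiratory chain, fell by 1.74 on the log2 scale, with an FDR of 0.053 without the CO-CM library of repeat 1 and 0.0699 without that of PH-CM. Mgarp kept its call without any single library. Mgarp and Ndufa4l2 were picked after their values were seen. F13a1, the A chain of clotting factor XIII and a monocyte gene, was 2.20-fold lower, with 8.52, 21.9 and 11.4 CPM in UNX, 8.75, 25.0 and 12.5 in CO-CM, and 27.1, 86.1 and 48.5 in PH-CM. Its FDR was 0.0212, and it was 0.0912, 0.104 and 0.0545 without the repeat 1 library of CO-CM, PH-CM and UNX.

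Arg1, arginase 1 and a marker of alternative activation, had the largest fold of the genes with a mean of at least 5 CPM. It was at 3.84, 20.8 and 9.46 CPM in UNX, 0.91, 16.2 and 7.30 in CO-CM, and 31.6, 119.6 and 64.3 in PH-CM for repeats 1, 2 and 3. Repeat 1 was lowest in each treatment, while every PH-CM library stood above every UNX and CO-CM library. Arg1 was 4.08-fold lower (log2 -2.03 ± 0.40, FDR 0.0102), and the FDR was 0.0513 without the CO-CM library of repeat 1. The difference between PH-CM and UNX was 3.03, 2.52 and 2.76 on the log2 scale in repeats 1, 2 and 3. The difference between CO-CM and UNX was -2.05 in repeat 1 and -0.36 and -0.37 in repeats 2 and 3.

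**Figure D3:**
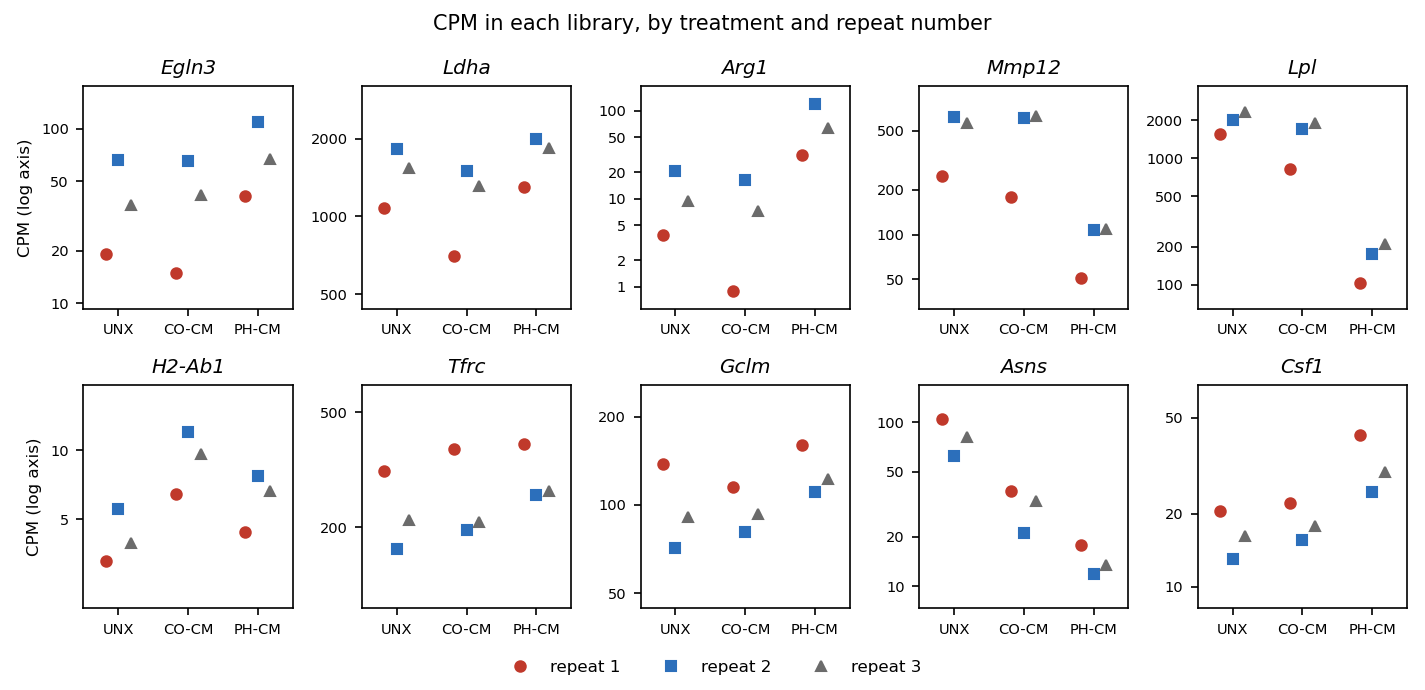
CPM on a log axis of 10 genes by treatment, with 1 point for each library and a symbol for each repeat. Egln3, Ldha and Arg1 run from repeat 1 to 3 to 2, Mmp12 and Lpl have repeat 1 below the close pair of repeats 2 and 3, and Tfrc, Gclm, Asns and Csf1 have repeat 1 on top.

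A second set of genes fell in repeat 1 with repeats 2 and 3 close together. Mmp12, macrophage elastase, was at 247 CPM in repeat 1 against 622 and 559 in UNX, 179 against 612 and 624 in CO-CM, and 50.7 against 108 and 108 in PH-CM. The groups did not overlap within a treatment, and the gene was 2.60-fold lower (log2 -1.38 ± 0.10, FDR 0.000196). Repeats 2 and 3 differed by 0.04 on the log2 scale. Mmp13, a collagenase, changed by -0.63, and Spp1, osteopontin, by -0.40. In the list of matrix and protease genes, 1 of 29 was called higher and 6 lower (20.7%, against 3.79% of all genes). With single libraries left out, 6 to 7 were lower. Col6a1 (-0.74) and Col3a1 (-0.58), collagen chains, were among the 6.

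Some surface receptors of macrophages were called lower. Itgax, the integrin CD11c, was at 8.52 CPM against 33.5 and 29.1 in UNX, 19.2 against 63.8 and 59.4 in CO-CM, and 5.13 against 6.78 and 7.64 in PH-CM. Repeat 1 was lowest in each treatment, and the gene was 2.70-fold lower overall (log2 -1.43 ± 0.20, FDR 0.00286). Clec7a, the beta-glucan receptor Dectin-1, was at 17.5 CPM against 35.0 and 34.7 in UNX, 72.5 against 174 and 163 in CO-CM, and 21.9 against 32.4 and 35.1 in PH-CM. It was 1.94-fold lower (log2 -0.95 ± 0.09, FDR 0.00064). Fcgr4, an activating Fc receptor, was 1.47-fold lower with the smallest standard error among these (log2 -0.56 ± 0.04). Of 31 complement, Fc and scavenger receptor genes, 6 were called lower (19.4%, against 3.79% of all genes), 0 higher and 25 not called. Without the CO-CM library of repeat 1, 3 were lower. DESeq2 also called 6 lower and 0 higher, and 2 of the 31 were higher at an unadjusted p under 0.05. Of 25 toll-like receptor genes 23 were not called, and Tlr1 (-0.38) and Tlr9 (-0.46), which sense microbial lipopeptides and DNA, were called lower, 2 of 25 against 3.79% of all genes, and Tlr9 had an FDR of 0.0593 without the PH-CM library of repeat 1.

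Lipid and lysosome genes fell in part. Lpl, lipoprotein lipase, was at 1557 CPM against 2003 and 2324 in UNX, 824 against 1710.3 and 1909 in CO-CM, and 103 against 175 and 209.8 in PH-CM, a 1.77-fold fall (FDR 0.00253). Repeat 1 was lowest in each treatment, within a range of more than an order of magnitude between treatments. The fatty acid binding protein gene Fabp4 changed by -0.64, and with Fabp5 these were the 3 of 19 PPARg and fatty acid oxidation genes called, all lower. Fabp5 lost its call without any of 5 single libraries, with the highest FDR (0.0651) without the UNX library of repeat 1. Atp6v0d2, a V-ATPase subunit of osteoclasts and macrophages, was at 69.6 CPM against 207 and 187 in UNX, 382 against 629 and 613 in CO-CM, and 230.6 against 308 and 348 in PH-CM. It was 1.83-fold lower (FDR 0.00523). With Ctsk (cathepsin K, -0.60) and Gm2a (a ganglioside activator protein, -0.42) it made up the 3 of 41 lysosomal genes called. Of 14 LXR and cholesterol export genes, 3 were called lower (Abcg1, Nr1h3 and Abcg3), and 1 without the PH-CM library of repeat 1. Genes called lower made up 15.8% of the PPARg list, 7.32% of the lysosomal list and 21.4% of the LXR list, against 3.79% of all genes. Abcg1, a cholesterol exporter, had an FDR of 0.0546 without the CO-CM library of repeat 1. Of 24 cholesterol synthesis genes, edgeR called 0, with 6 at an unadjusted p under 0.05 and 0 called by DESeq2.

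Transcripts of MHC class II genes were at low levels, and most that passed the filter were lower in repeat 1. H2-Ab1, a class II beta chain, was at 3.30, 5.57 and 3.96 CPM in UNX, 6.44, 11.96 and 9.66 in CO-CM, and 4.39, 7.70 and 6.62 in PH-CM for repeats 1, 2 and 3. In each treatment repeat 1 was lowest, and the gene was 1.59-fold lower (FDR 0.00771). Of the 7 class II genes that passed the filter, 6 were called lower (85.7%, against 3.79% of all genes), with a median of -0.46. Cd74, the invariant chain, was 1.30-fold lower. None of the 6 kept its call without the CO-CM library of repeat 1, where H2-Ab1 had an FDR of 0.0622. H2-DMa overlaps Brd2, so their reads cannot be told apart. Of 19 MHC class I genes, edgeR and DESeq2 called 0, and 14 were lower at an unadjusted p under 0.05.

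Immediate early genes, the first transcripts after a stimulus, fell for 8 of 29 (27.6%) and rose for 1 (3.45%), against 3.79% and 1.54% of all genes. Fos was at 33.0, 58.3 and 42.9 CPM in UNX, 32.6, 60.9 and 60.8 in CO-CM, and 131.8, 194 and 189.9 in PH-CM for repeats 1, 2 and 3. The lowest library of each treatment was repeat 1, with a 1.601-fold fall (log2 -0.68 ± 0.09, FDR 0.00253). Egr2, a zinc finger factor linked to alternative activation, changed by -0.97, and Dusp1, a MAP kinase phosphatase whose reads overlap those of Ergic1, by -0.59. Fosl1, which overlaps Ccdc85b, was the gene called higher and lost its call without any of 7 single libraries, with the highest FDR (0.228) without the UNX library of repeat 1. The count of falls was 5 without the CO-CM library of repeat 1 and up to 11 with others left out.

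Cytokine genes were divided. Among 23 inflammatory cytokine and chemokine genes, 4 fell (17.4%) and 2 rose (8.7%), against 3.79% and 1.54% of all genes. The median shift of the 23 was 0.37 in UNX, -0.33 in CO-CM and -0.25 in PH-CM, so its direction differed between treatments. Il1rn, the interleukin-1 receptor antagonist, was at 50.9, 64.1 and 69.2 CPM in UNX, 15.5, 26.7 and 28.8 in CO-CM, and 34.6, 46.0 and 48.3 in PH-CM. It was lowest in repeat 1 throughout and 1.46-fold lower (FDR 0.00289). The chemokines Ccl6 (-0.57) and Ccl9 (-0.49) and the cytokine Osm (-0.53) fell too. Csf1, the growth factor that was also supplied to these cultures, was at 20.5, 13.1 and 16.3 CPM in UNX, 22.3, 15.6 and 17.8 in CO-CM, and 42.6, 24.6 and 29.9 in PH-CM, 1.43-fold higher in repeat 1 (FDR 0.00523). Lif, an interleukin-6 family cytokine, changed by 0.71, with an FDR of 0.118 without the CO-CM library of repeat 1 and 0.0647 without that of UNX. Of 20 NF-kB feedback genes, edgeR and DESeq2 called 0, with 5 at an unadjusted p under 0.05. Their median shifts were 0.18 in UNX, -0.10 in CO-CM and -0.10 in PH-CM. Of 52 interferon-stimulated genes, 5 were called lower (Ifit1, Rsad2, Ifitm3, Phf11b and Gbp2), 9.62% against 3.79% of all genes. Without the CO-CM library of repeat 1, 1 was left. The median shifts of that list were -0.02, -0.39 and -0.10 in the same order of treatments.

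The genes that rose included iron uptake and glutathione synthesis. Tfrc, the transferrin receptor, was at 312 CPM in repeat 1 against 169 and 211 in UNX, 374 against 196 and 209 in CO-CM, and 388 against 260.0 and 266 in PH-CM. Repeat 1 was highest in each treatment without overlap, and the gene was 1.65-fold higher (log2 0.72 ± 0.07, FDR 0.000779). Gclm, the modifier subunit of the enzyme that starts glutathione synthesis, was at 138, 71.2 and 90.9 CPM in UNX, 115, 80.6 and 93.0 in CO-CM, and 159.8, 110.5 and 122 in PH-CM for repeats 1, 2 and 3. It was 1.46-fold higher (log2 0.55 ± 0.09, FDR 0.00447). Its catalytic partner Gclc (0.36), Txnrd1 (thioredoxin reductase, 0.38), Srxn1 (sulfiredoxin, 0.30) and Nqo1 (a quinone reductase, 0.54) rose as well, so that 5 of 29 NRF2 genes were called higher and 0 lower. The 5 were 17.2% of the list, against 1.54% of all genes called higher, and the median over the 29 was 0.03. Single left-out libraries gave 4 to 5 calls, and Nqo1 lost its call without any of 8 libraries, with the highest FDR (0.222) without the PH-CM library of repeat 1.

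The promoter of Gclm is shown because it holds the letters of the antioxidant response element, the kind of element that NRF2 binds. The window is chr3:122245307-122245606 (GRCm38.p6, plus strand, RefSeq), with TGACNNNGC on either strand in capitals.
Gclm: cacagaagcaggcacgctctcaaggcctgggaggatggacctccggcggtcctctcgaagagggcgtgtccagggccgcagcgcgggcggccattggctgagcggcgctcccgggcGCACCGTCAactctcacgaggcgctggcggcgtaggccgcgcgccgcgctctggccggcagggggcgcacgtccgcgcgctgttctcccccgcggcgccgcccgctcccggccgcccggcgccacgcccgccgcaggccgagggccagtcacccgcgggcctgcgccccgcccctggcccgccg
The letters were in 7 of 23 NRF2 list windows (30.4%), in 2 of the 4 called genes with a window, in 1380 of 9147 windows of tested genes (15.1%) and in 3365 of 27025 of all genes (12.5%). A match is again a description of letters and not a binding site.

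Amino acid genes rose in part. Asns, asparagine synthetase and a target of ATF4, was at 105, 61.8 and 81.2 CPM in UNX, 37.9, 21.2 and 33.3 in CO-CM, and 17.7, 11.8 and 13.5 in PH-CM for repeats 1, 2 and 3. Repeat 1 was highest in each treatment, and the gene was 1.42-fold higher (FDR 0.0227), with an FDR of 0.101 without the UNX library of repeat 1, 0.094 without that of CO-CM and 0.072 without that of PH-CM. Mthfd2 (0.43), of mitochondrial folate metabolism, and Slc7a5 (0.50), an amino acid transporter, were also called among the 5 of 27 ATF4 targets that rose. Slc7a5 lost its call without any of 7 single libraries and Mthfd2 without any repeat 1 library, with highest FDRs of 0.248 without the UNX library of repeat 1 and 0.101 without that of CO-CM. On the same list Vldlr, a lipoprotein receptor (-1.15), and Stc2, stanniocalcin 2 (-1.03), fell, Stc2 with an FDR of 0.0641 without the PH-CM and 0.0518 without the UNX library of repeat 1. The rises were 18.5% of the list and the falls 7.41%, against 1.54% and 3.79% of all genes. Repeats 2 and 3 differed on this list as well, with 9 of the 27 called between them, against 0.544% of all genes. The median of repeat 2 minus repeat 3 was -0.19 over the 27, and the median change of repeat 1 was 0.12. The list therefore did not move in repeat 1 alone. The rises numbered 0 without the UNX library of repeat 1 and 1 without that of CO-CM or of PH-CM.

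Ribosome biogenesis genes, which build ribosomes in the nucleolus, were called higher for 5 of 38 and lower for 0. The 5 were 13.2% of the list, against 1.54% of all genes called higher. The median over the 38 was 0.18. Of the 38, 24 (63.2%) lay above both other libraries in all 3 treatments, against 14.9% of all genes. Utp20, a processing factor of the small subunit, was at 99.6, 69.7 and 80.7 CPM in UNX, 47.8, 34.8 and 35.0 in CO-CM, and 35.3, 33.0 and 31.1 in PH-CM, with the smallest gap in PH-CM. It was 1.26-fold higher (FDR 0.0075, and 0.0644 without the CO-CM library of repeat 1). At an unadjusted p under 0.05, 27 of the 38 were higher and 0 lower. The genes called higher, 5 with all libraries, numbered 1 without the UNX or the CO-CM library of repeat 1. They numbered 10 without the CO-CM library of repeat 3, and 17 without all libraries of repeat 3. The order with repeat 1 highest and repeat 2 lowest held in all 3 treatments for 18 of the 38 (47.4%), against 395 of the genes tested (3.31%). These shares also count the high level of repeat 1, which lay above both in 24 of the 38 and in 1785 of all genes. Among the 77 cytosolic ribosomal protein genes, which have many pseudogene copies, 0 were called higher and Rpl39 was called lower, with a median of -0.13. At an unadjusted p under 0.05, 68 of the 77 were lower and 0 higher, so these changes were mostly under the fold of 1.2. Rpl39 itself passed under that fold without either of 2 CO-CM or 2 PH-CM libraries, those of repeats 1 and 3. The 68 of 77 and the 27 of 38 have no share of all genes beside them. Repeat 1 lay below both other libraries in all 3 treatments for 53 of the 77, against 1967 of all genes. With library size alone these numbers were 32 and 1285.

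Other genes that rose had separate roles. Ctla2a, a cysteine protease inhibitor gene, was at 2.19, 1.07 and 0.78 CPM in UNX, 3.496, 1.24 and 1.00 in CO-CM, and 26.0, 15.1 and 15.8 in PH-CM for repeats 1, 2 and 3. It was 2.16-fold higher (log2 1.11 ± 0.15, FDR 0.00257), with repeat 1 on top in each treatment. Inpp4b, a phosphoinositide phosphatase, was 1.68-fold higher (FDR 0.00135). The fractalkine receptor gene Cx3cr1 (0.81, FDR 0.0541 without the UNX library of repeat 1), Skil (0.60) and Pmepa1 (0.64), both feedback genes of TGF-beta signalling, were the 3 of 19 TGF-beta genes called higher. These were 15.8% of the TGF-beta list, against 1.54% of all genes, and 1 of the 19 was called lower. Skil had an FDR of 0.0732 without the UNX library of repeat 1, and Pmepa1 one of 0.145 without that of CO-CM and 0.102 without that of PH-CM. mt-Nd6, which lies opposite mt-Nd5 on the mitochondrial genome and shares its reads where strand is ignored, changed by 0.39 and was the 1 of 12 mitochondrial transcripts called.

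Proliferation and protein folding genes gave few or no calls. Of 36 DNA replication genes, 23 ER chaperone and unfolded protein genes, 20 cytosolic heat shock genes and 54 nuclear respiratory chain genes, edgeR and DESeq2 called 0. At an unadjusted p under 0.05 these lists held 1, 5, 4 and 23 genes, the respiratory chain genes all lower. Without the share of all genes at that cutoff, these counts cannot show whether a list moved more than other genes. Of 35 mitosis genes, edgeR called Cenpa, a centromere histone, lower, with an FDR of 0.0595 without the CO-CM and 0.0546 without the PH-CM library of repeat 1. The median shifts of the mitosis list were 0.06 in UNX, -0.27 in CO-CM and 0.15 in PH-CM. Those of the DNA replication list were 0.08, -0.21 and 0.09. The direction of both lists thus differed between treatments, and few calls do not mean that no treatment shifted. Hist1h1c, a linker histone gene, fell 1.51-fold (log2 -0.59 ± 0.05, FDR 0.000231). In all, 130 of the 637 called genes were on at least 1 of the 48 lists and 507 were on none.

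**Figure D4:**
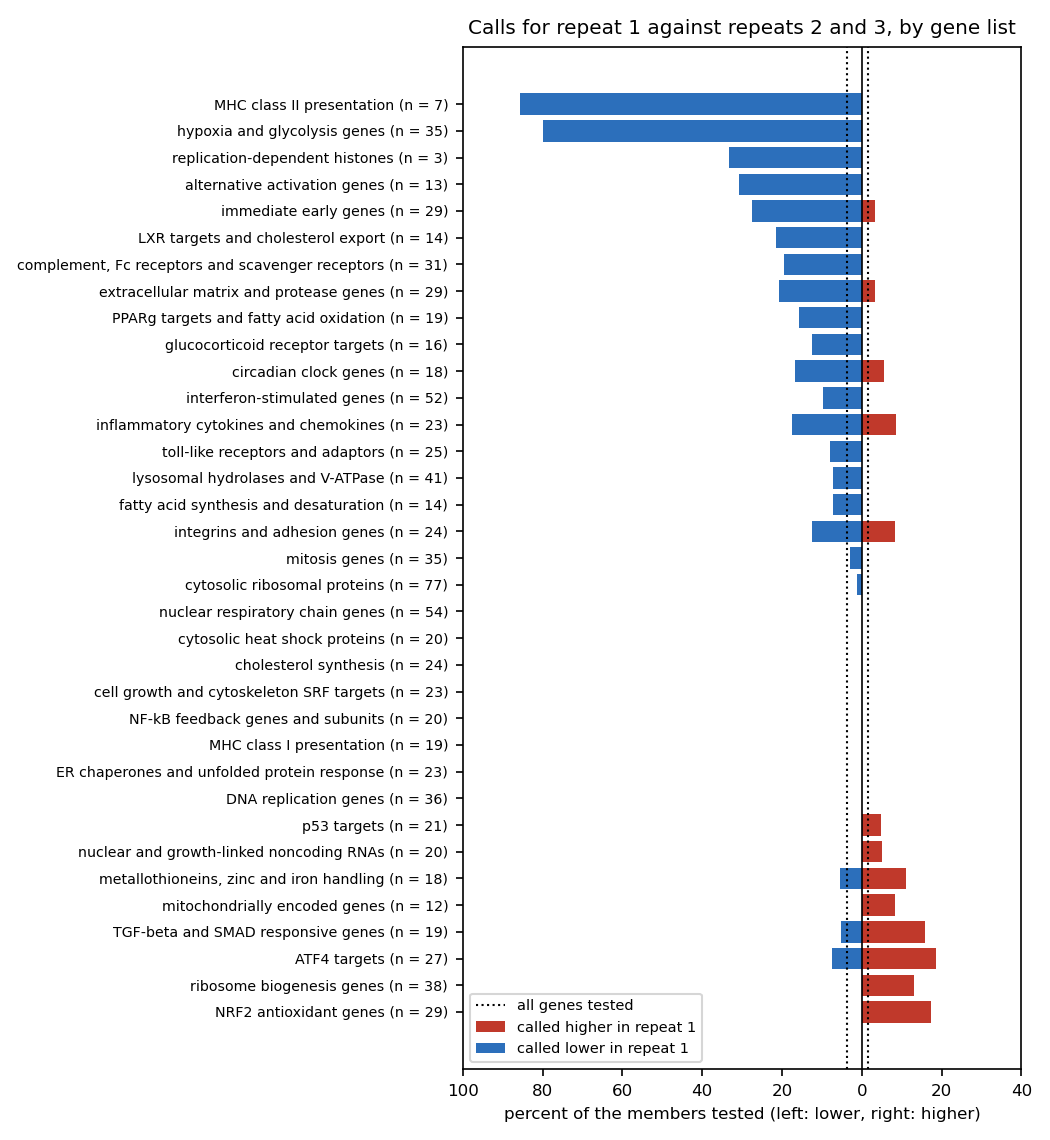
Percent of the tested members of 35 gene lists called lower (left, blue) or higher (right, red) in repeat 1 against repeats 2 and 3, with the number tested in parentheses. Dotted lines give the share over all genes tested, 3.79% lower and 1.54% higher. MHC class II and hypoxia and glycolysis genes extend farthest to the left.

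Markers of other cells also moved in part. Monocyte genes summed to 34.35 to 61.95 CPM in repeat 1 and 37.0 to 137 CPM in the others, with Ccr2, F13a1 and Ifitm6 called lower and Cx3cr1 higher of 9 tested. Ccr2 lost its call without the repeat 1 library of CO-CM (FDR 0.102) or of PH-CM (0.0937), and the monocyte genes called lower were then 1 in place of 3. Osteoclast and fused-cell genes summed to 327 to 658 against 454 to 931 CPM, with 3 of 7 lower (Ctsk, Acp5 and Atp6v0d2) and Calcr at 0 reads. Acp5 lost its call without the repeat 1 library of CO-CM (FDR 0.111) or of PH-CM (0.129). Fibroblast and stromal genes summed to 260.2 to 349 against 257 to 442 CPM, with Col3a1, Col6a1 and Dcn lower and Postn higher of 12 tested. Postn lost its call without any of 7 single libraries, with the highest FDR (0.208) without the CO-CM library of repeat 1, and Dcn without the repeat 1 library of CO-CM (0.0722) or of UNX (0.0968). Granulocyte genes summed to 12.8 to 70.4 against 16.1 to 88.9 CPM, with Csf3r lower of 3 tested and Ly6g at 0 reads. B cell genes summed to 168 to 301 against 218 to 324 CPM, with Ighm lower of 3 tested. Ighm lost its call without any of 6 single libraries, with the highest FDR (0.21) without the UNX library of repeat 1. Mast cell, basophil and eosinophil genes summed to 1.89 to 8.29 against 2.48 to 13.5 CPM, with Siglecf and Ccr3 lower of 3 tested. Ccr3 lost its call without any of 6 single libraries, with the highest FDR (0.168) without the CO-CM library of repeat 1. Called higher were Fscn1, 1 of 5 dendritic cell genes, and Sox4, 1 of 3 progenitor genes. Each lost its call without any of 7 single libraries, with the highest FDR for Fscn1 (0.159) without the UNX and for Sox4 (0.291) without the PH-CM library of repeat 1. Of the 5 endothelial and 3 erythroid genes tested, edgeR and DESeq2 called 0, with 2 and 1 at an unadjusted p under 0.05, and Il7r was the 1 T and NK cell gene called, lower, with a fold under 1.2 without the UNX library of repeat 1 (FDR 0.0215). Within treatments, the summed level of repeat 1 lay below both other libraries in 3 of 3 treatments for the macrophage, osteoclast, granulocyte, B cell, T and NK cell, mast cell and erythroid lists. It did so in 2 of 3 for the monocyte and endothelial lists and in 1 of 3 for the dendritic cell, fibroblast and progenitor lists. The sum of repeat 1 lay above both other libraries in 2 of 3 treatments for the progenitor list and in 3 of 3 for the Y-linked list. For the calls in these lists, the share over all genes tested was 3.79% lower and 1.54% higher. The part of other cell types in the changes above was not tested.

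The shift of repeat 1 also moved with gene length. Across genes it had a Spearman correlation of 0.267 with exon length and -0.162 with GC content, as a description. Of 10 equal bins of genes by exon length, the shortest (median 1160 bases) had a median shift of -0.0626 and the longest (median 12362.5 bases) 0.0688. Genes called higher had a median exon length of 5684 bases and genes called lower 3448, against 4407.5 over all tested. With offsets that remove the length trend, 585 genes were called (155 higher and 430 lower), of which 523 were also called without them. The hypoxia list then had 28 lower with a median of -0.47, the ribosome biogenesis median was 0.19 and the ribosomal protein median -0.09. The number of hypoxia genes called was the same with the length trend removed.

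**Figure D5:**
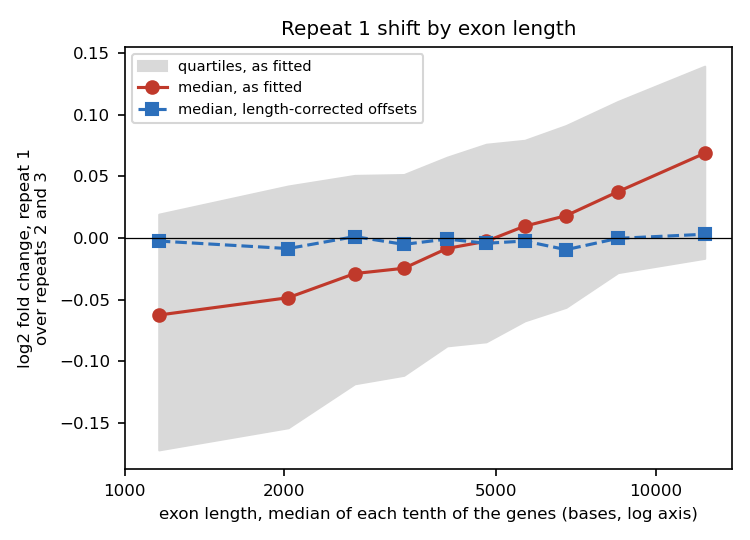
Median shift of repeat 1 (log2) in 10 equal bins of genes ordered by exon length in bases, as fitted and with length-corrected offsets. The fitted medians rise from -0.0626 to 0.0688 from the shortest to the longest bin, and the corrected medians stay near 0.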

How the data were processed

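The authors deposited raw gene counts and RPKM values for 9 libraries, 3 each of UNX, CO-CM and PH-CM. The submitters' processing notes name FastQC, STAR, featureCounts 1.6.2, R 3.4.3 and edgeR 3.14, and the strand setting is not given in the sources used here. The deposited comparison tables hold the authors' fold changes and p-values and were not used. RPKM values, which the authors computed per exon length, served only for levels compared between genes. Of 53465 identifiers, 53274 matched a reference name.

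Counts were tested as deposited with the quasi-likelihood test of edgeR 4.0.16 (R 4.3.3, limma 3.58.1), TMM normalization, treatment as a block and repeat 1 against the mean of repeats 2 and 3. Genes needed more than 1 CPM in at least 3 libraries, and log2 CPM used a prior count of 2. Calls needed a Benjamini-Hochberg FDR of at most 0.05 and a fold of at least 1.2. DESeq2 1.42.0 was an alternative. Figures and lists used Python 3.11.15, pandas 2.3.3 and matplotlib 3.10.9.

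Named genes were the 12 with the largest change in each direction among called genes with a mean of at least 5 CPM and repeat 1 outside both other libraries in all 3 treatments, up to 4 called members of each list by size of change, macrophage and sex-linked markers, up to 5 genes by the interaction, and Ch25h and Arg1. Other genes were named after their values were seen. Not every gene named by the rule is described. Left out of the 12 higher were Pald1 (0.81), Gm14221 (0.61), A530064D06Rik (0.55), the rRNA gene CT010467.1 (0.55), Atp2b4 (0.55) and Lrp8 (0.51). Left out of the 12 lower were F10 (-1.29), Matk (-1.18) and Prelid2 (-1.16). Of these, only A530064D06Rik, Matk and Prelid2 kept the call without any single library. Members and lists were chosen with earlier results of these data known. Deviations of same-numbered libraries from their treatment means correlated in all 9 pairs (r = 0.276 to 0.484 across genes, against -0.376 to 0.042 for different numbers), and libraries of a number were therefore taken as 1 repeat. Taking deviations from the treatment mean itself lowers the correlation of different numbers where that of the same number is positive. What a shared number stands for was not tested. Repeats 2 and 3 have no term of their own except in the fit with the replicate block. No 2 libraries were duplicates: the lowest chi-square per gene between libraries of a treatment was 8.91. On simulated data with 11883 genes testable, 44 of 49 genes changed by 0.5 on the log2 scale were recovered (89.8%), all genes changed by 1, 2 or 3 were recovered, and 0 unchanged genes were called. The simulated libraries were independent and had no shift of repeats 2 or 3, unlike the data. The simulation therefore cannot give the rate of false calls in the data. Of counts under 20, 81.4% to 83.8% were even, so most read pairs entered as 2 reads and the counts overstate the number of fragments. Depth limits precision at levels near 1 CPM. Alternatives covered normalization, filters, thresholds, tools, length and GC correction, a replicate block, and left-out libraries, treatments and repeats.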

Additional observations from a re-analysis of the deposited data

How the results depend on the processing

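The count of 637 called genes was 978 with no filter on low levels, 1814 with no fold threshold (759 higher and 1055 lower), 30 at a fold of 2, 0 with no treatment block, where treatment differences enter the spread, and 339 without the CO-CM libraries. Leaving out single libraries gave 304 to 680, the lowest without the CO-CM library of repeat 1. The count was 740 with library size alone (353 higher and 387 lower), 651 with upper-quartile scaling (167 and 484), 699 with DESeq2, 665 with voom, 631 with a GC correction, 523 without repeat 2 and 704 without repeat 3. The length correction gave 585, and together with the replicate block, a pairing of settings chosen after seeing the data, 700. With the replicate block, in which repeats 2 and 3 each have a term, 758 genes were called (247 higher and 511 lower), and 29 hypoxia genes were lower.

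Hypoxia genes called lower numbered 0 with no treatment block, 4 at a fold of 2, 18 without the CO-CM libraries and 14 to 30 with single libraries left out. Genes with a shift that differed between treatments numbered 382 with no filter, 121 with DESeq2 and 0 to 1 with single libraries left out. Library size alone put 2773 genes above and 1285 below both other libraries in all 3 treatments. With no filter, repeats 1 and 3 differed in 918 genes and repeats 2 and 3 in 281. Single left-out libraries gave 629 to 943 genes for repeat 1 against 2, 312 to 697 for 1 against 3, and 2 to 163 for 2 against 3. For the differences with no cause shown by the setting itself, the cause was not tested. Of 103 called genes among 127 named by the rule, 40 kept the call without any single library. No called gene of those named changed direction under any setting run. Depth limits genes near 1 CPM, such as Mgarp and Siglecf, where few reads stand behind a fold.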

Other observations

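Clock genes were called in both directions in repeat 1. Of 18 tested, Dbp, Npas2 and Bhlhe40 were called lower (16.7%) and Usp2 higher (5.56%), against 3.79% and 1.54% of all genes. Without the CO-CM library of repeat 1, 0 of the 18 were called. Npas2 also lost its call without the repeat 1 library of PH-CM (FDR 0.0815) or of UNX (0.056) and without the CO-CM library of repeat 2 (0.0538). Bhlhe40, a repressor that is also on the hypoxia list, was at 43.4, 74.3 and 78.4 CPM in UNX, 107, 131 and 149.7 in CO-CM, and 79.9, 85.6 and 104 in PH-CM for repeats 1, 2 and 3, and was 1.39-fold lower (edgeR quasi-likelihood test, FDR 0.0116, and 0.0514 without the CO-CM library of repeat 1). Dbp lost its call without any of 6 single libraries, with the highest FDR (0.196) without the UNX library of repeat 1, and shares reads with its overlapping neighbour Sphk2 where strand is ignored. Usp2, a deubiquitinase that cycles with the clock, was at 7.24, 4.66 and 5.33 CPM in UNX, 10.6, 7.32 and 8.996 in CO-CM, and 5.71, 3.90 and 4.65 in PH-CM, 1.36-fold higher, with an edgeR FDR of 0.0595 without the CO-CM and 0.0695 without the UNX library of repeat 1.

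Siglecf, a sialic acid receptor of alveolar macrophages and eosinophils, was under 3.5 CPM in every library and 4.54-fold lower in repeat 1 (edgeR FDR 0.00486). F7, clotting factor VII, was at 2.56, 8.48 and 8.39 CPM in UNX, 10.9, 22.6 and 22.9 in CO-CM, and 14.2, 25.3 and 27.9 in PH-CM, 2.22-fold lower with repeats 2 and 3 side by side.

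Scd1, a fatty acid desaturase, had one of the largest differences between treatments in its repeat 1 shift, at 35.8, 101.4 and 88.5 CPM in UNX against 7.61, 8.10 and 7.53 in CO-CM and 9.28, 8.47 and 9.40 in PH-CM, with an FDR of that difference of 0.102 in edgeR and 3.21e-13 in the likelihood ratio test of DESeq2. Ch25h, cholesterol 25-hydroxylase, was at 4.07 CPM in the UNX library of repeat 1 against 1.17 and 1.28 in the other UNX libraries, and at 0.18 CPM or less in every treated library. Of 4 Y-linked genes tested in these male cells, edgeR called 0, with 3 higher at an unadjusted p under 0.05 and 0 called by DESeq2.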
